A study of Mus musculus with 4 samples.

Results

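The Hox cofactors of the TALE family are 8 homeobox genes here: Pbx2, Pbx3, Pbx4, Meis1, Meis2, Meis3, Pknox1 and Pknox2. They were chosen by name, and their probes are all those whose accession belongs to 1 of these genes, 13 probes of 41174 on the array and 8 genes of 18220 named. The tissue was the posterior body of E9.5 mouse embryos, collected from intercrosses of Jmjd3+/- mice and staged by somite number. Jmjd3, now Kdm6b, encodes an enzyme that removes methyl groups from lysine 27 of histone H3, a mark of silenced genes. Total RNA labelled with Cy3 was hybridised to 1-colour Agilent arrays, 1 array per RNA sample, with 2 Jmjd3-/- samples (replicates 1 and 9) and 2 wild-type samples (replicates 3 and 4). The labels do not say whether a sample is 1 embryo or a pool, how the allele was made or on which strain it was kept, so a p-value speaks only of the spread among these 4 samples.

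TALE homeodomain proteins carry extra amino acids in a loop of the homeodomain. Pbx proteins bind DNA together with Hox proteins and sharpen their choice of site, and Meis and Pknox proteins bind both DNA and Pbx, whose entry into the nucleus they promote. In the embryo they act with Hox proteins in the hindbrain, the axial skeleton and the limb, and Meis genes respond to retinoic acid in the trunk and the proximal limb.

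Of the 13 probes, 12 were well above background on all 4 arrays, which covered all 8 genes. None of the 13 was marked as an outlier spot on any array. Pbx2, Pbx4, Meis1, Meis2 and Pknox2 had 2 probes each, while Pbx3, Meis3 and Pknox1 had 1. A value below is the log2 processed signal of a probe less the 75th percentile of its array, and the brightest probe stands for a gene. Such values compare arrays for the same probe and do not rank genes by their level.

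Between 59.8% and 63.0% of probes were well above background on an array, no spot was saturated, and a single slide carried all arrays. Of 13579 genes tested, 157 were more than 2-fold apart between the wild-type samples and 430 between the Jmjd3-/- samples. Jmjd3-/- replicate 1 passed that fold against wild-type at 705 to 804 genes and replicate 9 at 331 to 353. Kdm6b stood at 0.35 in Jmjd3-/- replicate 1 and 0.11 in replicate 9, against 2.15 in wild-type replicate 3 and 2.23 in replicate 4, so its signal was lower in both Jmjd3-/- samples but not absent. The Kdm6b difference, Jmjd3-/- minus wild-type, was −1.96 (SE 0.12, 95% interval −2.29 to −1.62), or 25.7% of wild-type. The sources used here do not place its probe inside or outside the deleted part. The labelled tissue was checked on marker genes: all 10 posterior axis genes were tested, against 5 of 12 head genes, whose level differed between the genotypes (given with the other markers after the cofactor genes).

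None of the 8 cofactor genes passed an adjusted p of 0.05 (limma, Benjamini-Hochberg over 13579 genes), a threshold that 0.0368% of all genes passed, 0.0147% as lower and 0.0221% as higher in Jmjd3-/-. At an unadjusted p under 0.05 there was 1 of 8, Pknox2, against 11.1% of all genes. The difference, Jmjd3-/- minus wild-type, was negative for 7 of 8 genes and positive for Pknox2, with a median of −0.14. Over all genes tested the median was −0.012 and 53.1% were negative. The negative differences ran from −0.41 for Meis1 to −0.045 for Meis3, and Pknox2 stood at 0.36, so no cofactor gene differed by as much as 2-fold between the means of the genotypes. Kdm6b, at 25.7% of wild-type, did not pass the adjusted threshold either (limma adjusted p = 0.149). Missing that threshold therefore does not show that a gene was unchanged. Because only 2 arrays stood for each genotype, the 95% intervals below leave room for changes larger than those measured.

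**Figure D1:**
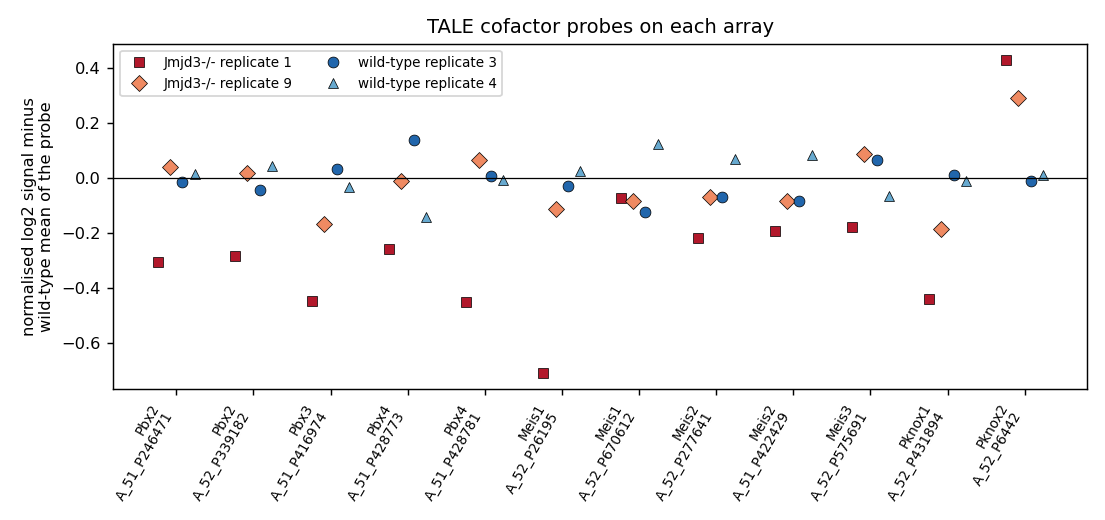
Normalised log2 signal of the 12 tested probes on each array, less the wild-type mean of the probe; a point is 1 array and the line at 0 is the wild-type mean. Jmjd3-/- replicate 1 (red squares) is the lowest array for 10 of the 12 probes, with the dimmer Meis1 probe and the Pknox2 probe as exceptions. Over all genes tested it is the lowest array for 43.1%.

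The start-site windows of the genes are shown because the demethylase acts on chromatin at gene starts. RefSeq windows of GRCm38.p6, from 250 bases before to 50 after a gene's start, were at hand for 5 of the 8 genes, Meis1, Meis2, Meis3, Pbx2 and Pbx4. The windows of Meis1, the gene with the largest difference, and of Pbx2, with the highest CpG content of the 5, are printed 5′ to 3′ in the direction of transcription. Capitals mark matches to the CCAAT box (CCAAT) or the GC box (GGGCGG) on either strand.
Meis1, chr11:19018920-19019219, minus strand: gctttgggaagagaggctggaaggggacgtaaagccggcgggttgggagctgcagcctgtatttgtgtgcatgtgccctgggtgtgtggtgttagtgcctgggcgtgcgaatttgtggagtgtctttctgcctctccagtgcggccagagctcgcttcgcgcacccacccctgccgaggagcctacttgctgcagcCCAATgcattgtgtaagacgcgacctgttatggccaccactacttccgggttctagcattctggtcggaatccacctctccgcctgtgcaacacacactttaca
Pbx2, chr17:34592009-34592308, plus strand: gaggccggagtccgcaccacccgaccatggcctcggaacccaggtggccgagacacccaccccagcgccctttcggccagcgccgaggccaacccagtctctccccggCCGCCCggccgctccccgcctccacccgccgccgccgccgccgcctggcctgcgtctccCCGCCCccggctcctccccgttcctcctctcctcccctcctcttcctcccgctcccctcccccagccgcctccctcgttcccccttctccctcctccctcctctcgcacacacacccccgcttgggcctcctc
The ratio of observed to expected CpG was 0.589 for Meis1, 0.666 for Meis2, 0.688 for Meis3, 0.799 for Pbx4 and 0.882 for Pbx2, against a median of 0.384 over 32851 windows. All 5 windows were thus richer in CpG than the median window, and 14.1% of windows were at least as rich as that of Pbx2. The Pbx2 window held 2 GC boxes, which 35.7% of all windows hold at least once, and the Meis1 window held 1 CCAAT box, which 37.4% hold. The Meis2 window also held 1 CCAAT box and the Pbx4 window 2, while those of Meis3 and Pbx2 held none. Both motifs were searched on either strand and do not overlap each other. Also searched on both strands were TGACAG, a sequence that Meis and Pknox proteins bind, and TGATNNAT, a core bound by Pbx with Hox. They stood in 19.2% and 8.85% of all windows and in none of the 5, which says only that these letters are not in these windows.

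The Pbx genes encode the partners that bind directly beside Hox proteins. Pbx2, expressed broadly in the mouse embryo, stood at 4.25 in Jmjd3-/- replicate 1 and 4.59 in replicate 9, against 4.54 in wild-type replicate 3 and 4.57 in replicate 4. Replicate 1 was low, while replicate 9 stood above both wild-type arrays, so the genotypes overlapped. The difference was −0.13 (SE 0.14, 95% interval −0.54 to 0.28, limma adjusted p = 0.764), or 91.3% of wild-type. The dimmer Pbx2 probe, A_52_P339182, gave 0.30 and 0.60 against 0.54 and 0.62, a difference of −0.13 (SE 0.14). The probes of Pbx2 thus had the same order of low and high Jmjd3-/- arrays and the same mean difference to 2 decimals. Without Jmjd3-/- replicate 1 the Pbx2 difference was 0.041, with the sign turned, and without replicate 9 it was −0.30.

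Pbx3, known in the mouse for roles in the hindbrain and in motor neurons, stood at 1.12 in Jmjd3-/- replicate 1 and 1.40 in replicate 9, against 1.60 in wild-type replicate 3 and 1.53 in replicate 4. Both Jmjd3-/- arrays were below both wild-type arrays. Such a separation with Jmjd3-/- lower occurred for 3 of the 8 cofactor genes and for 23.7% of all genes. The difference was −0.31 (SE 0.13, 95% interval −0.66 to 0.049, limma adjusted p = 0.491), or 80.8% of wild-type. The Jmjd3-/- arrays were 0.28 apart on this probe and the wild-type arrays 0.065 apart. Without replicate 1 the difference was −0.17 and without replicate 9 it was −0.45. On the log2 scale 11.6% of all genes had a difference at least as negative as that of Pbx3.

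Pbx4, studied in the mouse mainly in the testis, stood at −2.20 in Jmjd3-/- replicate 1 and −1.95 in replicate 9, against −1.80 in wild-type replicate 3 and −2.08 in replicate 4. The wild-type arrays were 0.28 apart, more than the difference between the genotypes of −0.13 (SE 0.15, 95% interval −0.57 to 0.30, limma adjusted p = 0.774). Replicate 9 lay between the wild-type arrays. The second probe, A_51_P428781, gave −4.12 and −3.60 against −3.66 and −3.67, a difference of −0.19 (SE 0.20). On that probe the wild-type arrays were close together and replicate 1 alone stood apart. The Pbx4 difference was 0.0069 without wild-type replicate 3 and −0.27 without replicate 4, so the choice of wild-type array moved it from about 0 to its largest size.

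Meis genes encode partners of Pbx that also bind DNA. Meis1, which marks proximal limb and lateral mesoderm in the embryo and acts in blood stem cells, stood at 0.58 in Jmjd3-/- replicate 1 and 1.17 in replicate 9, against 1.26 in wild-type replicate 3 and 1.31 in replicate 4. Both Jmjd3-/- arrays were below both wild-type arrays, replicate 1 by far the more. The linear signals were 900 and 1302 in Jmjd3-/- against 1431 and 1558 in wild-type. The difference was −0.41 (SE 0.23, 95% interval −1.06 to 0.24, limma adjusted p = 0.576), or 75.2% of wild-type. This was the largest difference of the 8 in size, and 13.5% of all genes had one at least that large in either direction. The difference was −0.71 without replicate 9 and −0.11 without replicate 1.

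The probes of Meis1 did not move alike. The dimmer one, A_52_P670612, gave −2.34 in Jmjd3-/- replicate 1 and −2.35 in replicate 9, against −2.39 in wild-type replicate 3 and −2.14 in replicate 4. Its difference was −0.079 (SE 0.12), and the low value of replicate 1 on the brighter probe had no counterpart on it. Both probes carry the same RefSeq accession, and the sources used here do not say which part of the transcript each reads. With the mean of both probes the Meis1 difference was −0.24. Meis1 lies on chromosome 11, as Kdm6b does, but their distance was not measured and a link was not tested.

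Meis2, which retinoic acid induces and which marks the proximal limb and somites, stood at 4.34 in Jmjd3-/- replicate 1 and 4.49 in replicate 9, against 4.49 in wild-type replicate 3 and 4.63 in replicate 4. Replicate 9 stood level with wild-type replicate 3, and the genotypes overlapped narrowly. The difference was −0.14 (SE 0.10, 95% interval −0.43 to 0.15, limma adjusted p = 0.648), or 90.6% of wild-type. The second probe, A_51_P422429, gave 4.09 and 4.20 in Jmjd3-/- against 4.20 and 4.37 in wild-type, a difference of −0.14 (SE 0.11). The Meis2 probes therefore had the same order of arrays, with replicate 1 lowest and wild-type replicate 4 highest on each. The wild-type arrays were 0.14 apart on the brighter probe, about as far as the genotypes. Leaving out 1 array in turn moved the Meis2 difference between −0.22 and −0.067.

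Meis3, whose known role in posterior neural patterning comes from frog and zebrafish embryos, stood at 0.016 in Jmjd3-/- replicate 1 and 0.28 in replicate 9, against 0.26 in wild-type replicate 3 and 0.13 in replicate 4. The lowest and the highest array were both Jmjd3-/-. The difference was −0.045 (SE 0.13, 95% interval −0.41 to 0.32, limma adjusted p = 0.917), or 96.9% of wild-type. It was the smallest difference of the 8. Without Jmjd3-/- replicate 1 it was 0.087 and without wild-type replicate 3 it was 0.019, both with the sign turned, and without Jmjd3-/- replicate 9 it was −0.18.

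Pknox genes, also called Prep, encode further Pbx partners. Pknox1, needed for early mouse development, stood at −0.29 in Jmjd3-/- replicate 1 and −0.033 in replicate 9, against 0.16 in wild-type replicate 3 and 0.14 in replicate 4. Both Jmjd3-/- arrays were below both wild-type arrays, which were 0.023 apart. The difference was −0.31 (SE 0.12, 95% interval −0.64 to 0.018, limma adjusted p = 0.462), or 80.5% of wild-type. Of the 7 genes with a negative difference, Pknox1 had the smallest unadjusted p, 0.0581 by limma. Its difference was −0.19 without replicate 1 and −0.44 without replicate 9.

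Pknox2, a close relative of Pknox1, was the 1 cofactor gene with a positive difference. It stood at −0.38 in Jmjd3-/- replicate 1 and −0.51 in replicate 9, against −0.82 in wild-type replicate 3 and −0.79 in replicate 4. Both Jmjd3-/- arrays were above both wild-type arrays, a separation with Jmjd3-/- higher that 23% of all genes had. The linear signals were 465 and 404 against 340 and 362. The difference was 0.36 (SE 0.087, 95% interval 0.11 to 0.61), or 128% of wild-type, with an unadjusted p of 0.0162 and an adjusted p of 0.355 by limma. The gene had rank 617 by p among 13579 genes, and 6.51% of all genes had a difference at least as positive. The difference stayed between 0.29 and 0.43 over the alternatives run. Its second probe, A_52_P637756, was not well above background on any array and was not tested.

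**Figure D2:**
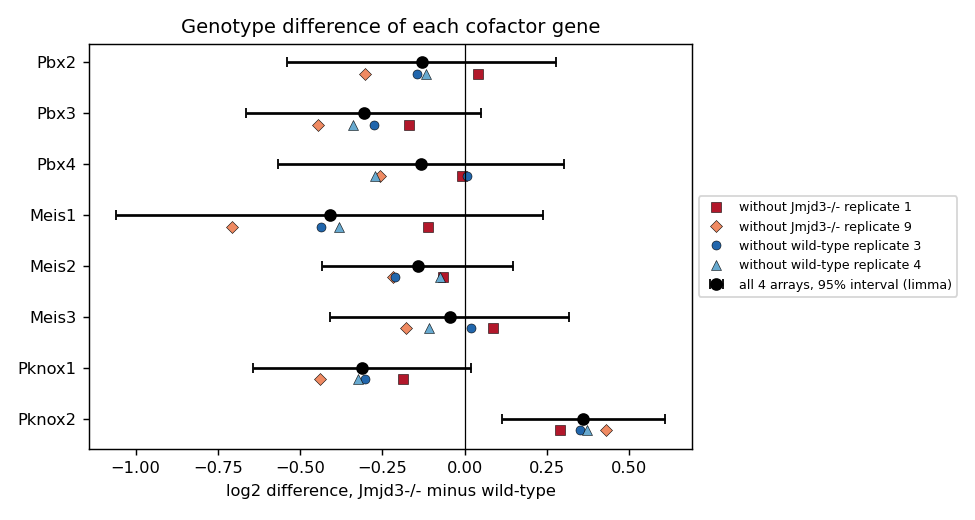
Log2 difference, Jmjd3-/- minus wild-type, of the brightest probe of each cofactor gene: black points use all 4 arrays with the 95% interval of the limma fit, and coloured points leave out 1 array. The interval of Pknox2, 0.11 to 0.61, is the 1 interval of 8 that does not cross 0, before adjustment over the genes tested.

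The Jmjd3-/- samples differed from each other on these genes. Replicate 1 was below both wild-type arrays for 7 of 8 genes, as it was for 48.4% of all genes. It was below replicate 9 for the same 7 genes, as it was for 59.6% of all genes. Replicate 9 was below both wild-type arrays for 3 of 8 genes, Pbx3, Meis1 and Pknox1, a position that 34.4% of all genes had. It was above both for 3, Pbx2, Meis3 and Pknox2, and between them for Pbx4 and Meis2, a position that 22.8% of all genes had.

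Against the wild-type mean, the median over the 8 genes was −0.28 in replicate 1 and −0.038 in replicate 9. The same medians over all genes were −0.037 and 0.015. The Jmjd3-/- arrays were further apart than the means of the genotypes for 5 of 8 genes. The wild-type arrays were further apart than those means for 2, Pbx4 and Meis3. The shares of all genes with such gaps were not counted, so these counts are not particular to the cofactor genes. Over all genes tested, the median size of the gap was 0.16 between the Jmjd3-/- arrays and 0.076 between the wild-type arrays. The median size of the genotype difference was 0.12. Replicate 1 was thus the lowest array for 7 genes, as it was for 43.1% of all genes tested. Replicate 9 lay between −0.19 and 0.087 of the wild-type mean for all cofactor genes but Pknox2. Pknox2 had the same sign in both, with 0.43 in replicate 1 and 0.29 in replicate 9. Pbx3 and Pknox1 were negative in both, with −0.45 and −0.44 in replicate 1 and −0.17 and −0.19 in replicate 9. Meis1, Meis2 and Pbx4 were negative in both too, with −0.71, −0.22 and −0.26 in replicate 1. In replicate 9 these 3 genes stood at −0.11, −0.067 and −0.0093. Pbx2 and Meis3 were negative in replicate 1 and positive in replicate 9.

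**Figure D3:**
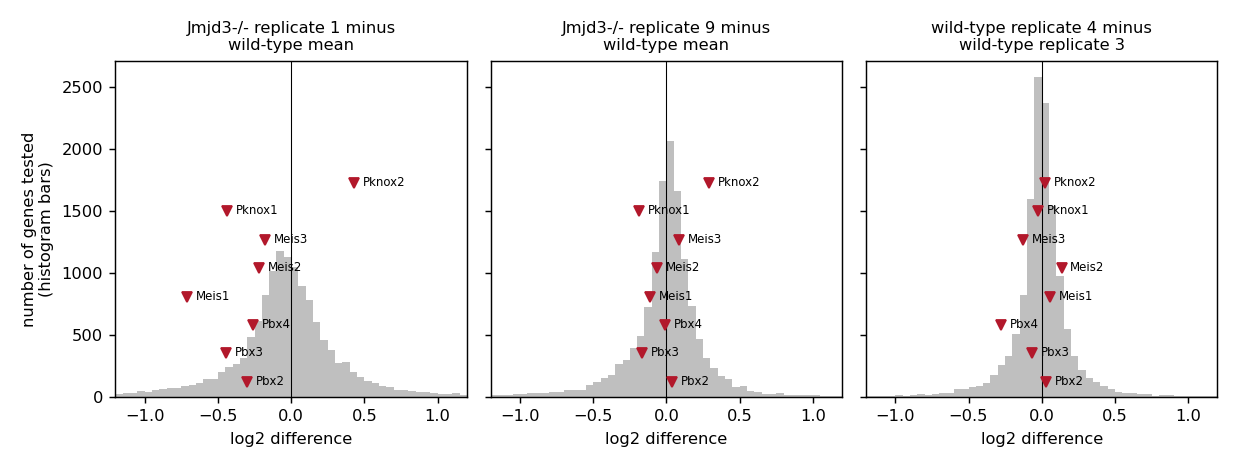
Histograms of the log2 difference of all 13579 genes tested for each Jmjd3-/- array against the wild-type mean and for the wild-type arrays against each other, cut at 1.2 on either side; triangles mark the 8 cofactor genes, and their height has no meaning. Meis1 lies at −0.71 in replicate 1 and at −0.11 in replicate 9.

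Replicate 1 also stood apart in several lists of cell type and tissue markers. The sums below add linear levels over different probes, so bright probes weigh most in them. Such a sum compares arrays for the same probes and does not measure the amount of a tissue. The 9 tested neural progenitor genes of 10 had a summed level, in units of the 75th percentile, of 8.48 in Jmjd3-/- replicate 1 and 18.6 in replicate 9, against 16.0 in wild-type replicate 3 and 19.1 in replicate 4. Here replicate 1 was low and replicate 9 lay within the wild-type range. The 9 tested neuron genes of 10 summed to 4.05 and 5.07 against 7.59 and 7.60, low in both Jmjd3-/- samples, with 2 genes of the list not well above background in replicate 1 and 1 in replicate 9. The 12 tested somite genes of 13 summed to 52.7 and 49.1 against 46.9 and 48.3, slightly above wild-type in both Jmjd3-/- samples, although 10 of the 12 genes had a negative difference and the median was −0.45. The posterior axis genes summed to 88.6 and 60.7 against 38.6 and 42.3, high in both and most in replicate 1. Of these 10 genes 7 were positive and 3 negative, with a median of 0.75, and Hoxd10 and Hoxd11 were among the negative ones. The 5 tested head genes were all negative with a median of −1.58, and 1 of them passed the adjusted threshold (limma). They summed to 0.77 in Jmjd3-/- replicate 1 and 1.74 in replicate 9, against 4.41 in wild-type replicate 3 and 5.12 in replicate 4. Both Jmjd3-/- samples were thus low and replicate 1 was the lowest, as it was for 7 of the 8 cofactor genes and for 43.1% of all genes. All 7 tested neural crest genes of 9 were also negative, and their sum of 3.43 and 4.59 against 5.12 and 5.06 had replicate 1 lowest. The 10 heart muscle genes, 8 of them negative, summed to 4.44 and 5.91 against 12.3 and 8.22, and the 10 primitive erythroid genes, 9 of them negative, to 318 and 448 against 477 and 604. Replicate 1 was again the lowest array for both. The 10 gut and visceral endoderm genes summed to 15.5 and 13.95 against 26.7 and 20.9, low in both Jmjd3-/- samples, with replicate 9 the lower. By sign, 4 of these genes were positive and 6 negative, with a median of −0.21. The 10 endothelial genes summed to 24.97 and 24.54 against 26.8 and 26.6, and the 3 tested macrophage genes of 8 to 0.32 and 0.21 against 0.26 and 0.29. The part of these differences in the values of the cofactor genes was not tested, and in such samples fewer cells of a type and less RNA per cell cannot be told apart.

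By Euclidean distance between array values, each gene centred on its own mean over the 4 arrays, the genes most like Meis1 were Emid1, Pou3f1 and Adam18, at 0.029, 0.035 and 0.035. All have replicate 1 far below the other arrays and replicate 9 slightly below both wild-type arrays. Within 0.1 of Meis1 lay 43 genes. The genes most like Pknox2 were Ins2, Osbpl10 and Ints7, at 0.030, 0.034 and 0.036, and 110 genes lay within 0.1 of it. With 4 arrays such likeness is common, and these genes only illustrate the patterns.

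Genes that work with the cofactors were read from the same comparison, and 0 genes of these lists passed the adjusted threshold (limma). Anterior and central Hox proteins bind DNA with Pbx. In Hox groups 1 to 4, 9 of 11 tested genes were positive with a median of 0.33, and 6 had an unadjusted p under 0.05. Hoxb2 differed by 0.33 (SE 0.071), Hoxa4 by −0.48 (SE 0.24) and Hoxa3 by −0.038 (SE 0.15), the last 2 with a second probe of the other sign. In groups 5 to 9, 9 of 14 were positive with a median of 0.27 (0.085 without replicate 1), and 2 had an unadjusted p under 0.05. Hoxc9 differed by 0.71 (SE 0.18), Hoxb9 by 0.38 (SE 0.097), Hoxb5 by −0.35 (SE 0.16) and Hoxa5 by −0.29 (SE 0.29). In groups 10 to 13, 6 of 7 were negative with a median of −0.65 (−0.40 without the filter on dim probes), and 4 had an unadjusted p under 0.05. Hoxd10 differed by −0.65 (SE 0.073), Hoxd11 by −0.72 (SE 0.12) and Hoxc10 by 0.11 (SE 0.16). The cofactor genes, with a median of −0.14, lay between these Hox lists, and no test of that difference was made.

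The other TALE homeobox genes, of the Irx, Tgif and Mkx families, do not serve as Hox partners. Of 9 tested, 5 were positive and 4 negative with a median of 0.049 (−0.024 without replicate 9), and 1 had an unadjusted p under 0.05. Tgif1 differed by 0.38 (SE 0.17), Mkx by 0.15 (SE 0.085), Irx5 by −0.71 (SE 0.23) and Irx1 by −0.14 (SE 0.098), the last with a second probe of the other sign. Of the non-Hox protein partners of Pbx and Meis 4 were tested, and Tlx1 differed by 0.90 (SE 0.093, limma adjusted p = 0.187), En2 by −0.33 (SE 0.12) and the Pbx-binding protein gene Pbxip1 by −0.058 (SE 0.072). Of 11 tested genes with Pbx or Meis input in mouse work, 4 were positive and 7 negative with a median of −0.059, which was 0.12 without replicate 1 and 0.023 without replicate 9. Besides Tlx1 and Hoxb2, Nkx2-5 differed by −1.86 (SE 0.29; well above background on 1 of 2 Jmjd3-/- arrays) and Aldh1a2, a retinoic acid synthesis gene, by −0.39 (SE 0.15).

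Retinoic acid induces Meis genes, and 14 of the 18 tested genes of its pathway were negative with a median of −0.39. That median was −0.52 in replicate 1 and −0.15 in replicate 9. The cofactor genes had the same order of the Jmjd3-/- samples, but replicate 1 was below replicate 9 for 59.6% of all genes. A link between the retinoic acid genes and the cofactor genes was not tested. The retinoic acid receptor gene Rarg differed by 0.46 (SE 0.095), the retinoic acid breakdown gene Cyp26a1 by 0.63 (SE 0.21), Rxrg by −0.48 (SE 0.12) and Rara by −1.05 (SE 0.41). Among lateral plate and proximal limb genes, where Meis genes are known to be active, 10 of 11 tested were negative with a median of −0.28, or −0.16 with normexp background correction. Prrx1 differed by −0.74 (SE 0.10), Tbx5 by −1.05 (SE 0.16) and Osr1 by 0.23 (SE 0.28). Their median was −0.42 in replicate 1 and −0.28 in replicate 9, whereas that of the cofactor genes was −0.28 and −0.038.

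**Figure D4:**
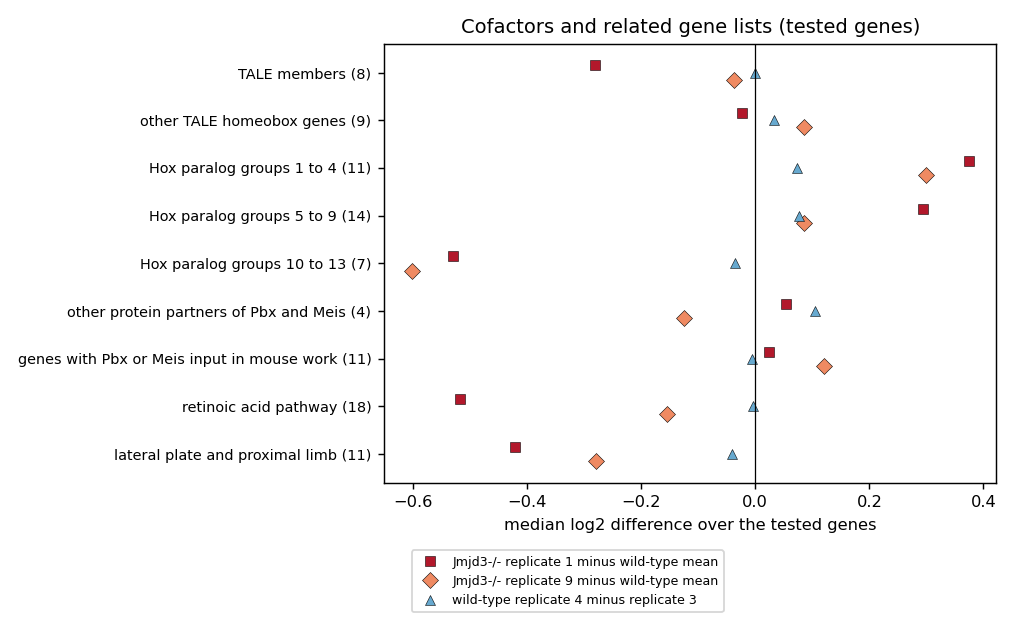
Median log2 difference over the tested genes of each list (their number in brackets) for each Jmjd3-/- array against the wild-type mean and for the wild-type arrays against each other. The 8 cofactor genes lie at −0.28 in replicate 1 and −0.038 in replicate 9.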

How the data were processed

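Per the file headers, the deposited scanner files give spot intensity from a 1-colour scan, produced with Agilent Feature Extraction version 10.7.3.1. That software corrects the processed intensity for background and for trends across the array, and the values are not scaled between arrays. A table of log2 values was also deposited; no label states its scale, and it was matched to the scaled values described next centred on the wild-type mean, with 99.9% of probes within 0.01. Its column medians were −0.021 for Jmjd3-/- replicate 1, 0.055 for replicate 9, 0.020 for wild-type replicate 3 and −0.020 for replicate 4. Its direction was found in the same way.

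From 45018 spots, 1639 control spots were left out. Log2 signals of a probe's spots were averaged and the array's 75th percentile (578 to 627) subtracted. The file headers name build mm9, so the RefSeq table of GRCm38.p6 served for names and chromosomes; it named 26682 probes by accession and 28 by synonym. The brightest probe stood for a gene, and the test took in the genes whose brightest probe was well above background in both samples of 1 genotype or of each. The comparison used limma 3.58.1 under R 4.3.3 (lmFit, eBayes, no covariate, 1.79 prior degrees of freedom, 95% intervals from the moderated error). The number of arrays limits the precision. Genotypes cannot be told apart from array position, with the Jmjd3-/- arrays at the ends of the slide.

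Named are all members with each probe, Kdm6b, the first 2 genes by p in each direction of each related list (1 such gene is not reported here), and the 3 genes nearest in profile to the 2 members with the largest differences. Members and lists were chosen with earlier results of these data known. Alternatives were normexp (offset 50, on the median signal, as the files have no mean signal), other scalings, filters, outlier flags, probe rules, an intensity trend, the deposited table and each array left out.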

Additional observations from a re-analysis of the deposited data

How the results depend on the processing

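Among the alternatives run, 0 cofactor genes passed the threshold in any, with 0 to 5 at an unadjusted p under 0.05 (limma). Over the gene-level alternatives that kept all 4 arrays, their median difference ran from −0.16 to −0.13 and 7 of 8 genes were negative; without 1 array in turn it ran from −0.28 to −0.038. Leaving out 1 array turned the sign of 3 genes: over the arrays left out, Pbx2 ran from −0.30 to 0.041, Pbx4 from −0.27 to 0.0069 and Meis3 from −0.18 to 0.087, with the positive values without Jmjd3-/- replicate 1 for Pbx2 and Meis3 and without wild-type replicate 3 for Pbx4 and Meis3 (0.019). Meis1 ran from −0.71 to −0.079, with the second value from its dimmer probe. The count of all genes past the threshold, 5 with the main processing, was 2 with normexp, 3 with an intensity trend, 0 with quantile normalisation, 0 without the filter on dim probes, 0 with a filter on all 4 arrays and 0 with every probe as its own feature, where 1464, 1621, 1415 and 2421 features had an unadjusted p under 0.05. Fits without 1 array leave 1 sample in a genotype, which is assumed to vary like the other genotype, the only source of the spread there. Without 1 array the count ran from 0 to 177, and the 177 came without Jmjd3-/- replicate 9; the cause was not tested. No paired analysis was possible because the genotypes share no replicate number. All tested probes of the cofactor genes were well above background on all 4 arrays, so signal over background limits only the second Pknox2 probe.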

Other observations

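The second Pknox2 probe, A_52_P637756, was not well above background on any array, and its values belong in no comparison. Its processed signals were 6.29 in Jmjd3-/- replicate 1, 5.31 in replicate 9, 4.24 in wild-type replicate 3 and 3.50 in replicate 4.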
